A study of Mus musculus with 14 samples.

Results

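The genes described here are the integrin and laminin subunits: every gene of the platform annotation whose symbol has the form Itga, Itgb or Lama, Lamb and Lamc followed by its subunit number or letter. The rule found 36 genes of 18820 on the array, 18 integrin alpha chains, 8 integrin beta chains and 10 laminin chains. Each gene is represented by the probe set of highest mean signal, a choice that among the members had to be made for Itgb1 alone. Probe sets listed with a second gene were left out, among them 1 for Itgb4 (log2 signal 4.74 to 5.56) and 1 for Itga4 (3.63 to 5.18).

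Integrins are transmembrane receptors built from an alpha and a beta chain, and the alpha chain largely sets which matrix protein is bound. Laminins are trimers of an alpha, a beta and a gamma chain and form the sheet of the basement membrane on which gut epithelium rests. In intestine and stomach, epithelial integrins anchor cells to laminin and collagen, and integrins that read the short RGD sequence bind fibronectin or release TGF-beta from its latent form.

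RNA came from 14 samples in 7 groups, each on its own Affymetrix Mouse Gene ST 1.1 array. The starting material was organoids, which are self-renewing epithelial cultures grown in Matrigel. All cells came from Cdx2-/fl / Lgr5-EGFP mice, so the controls also had only 1 working copy of Cdx2, the transcription factor that sets intestinal identity, and all carried the Lgr5-EGFP-Ires-CreERT2 knock-in, in which the stem cell gene Lgr5 drives GFP and a tamoxifen-dependent Cre. Stem cells (SCs) with high GFP were sorted from clonal organoids kept in stomach medium (Sto medium, ENRWfg): 3 arrays of control small intestinal cells (control SI SCs), 2 of control stomach cells (control Sto SCs) and 2 of intestinal cells in which overnight 4-hydroxytamoxifen had removed the remaining Cdx2 copy (Cdx2null SI SCs). Controls received no 4-hydroxytamoxifen. Whole control organoids gave the other arrays: SI organoids in intestinal medium (SI medium, ENR; 3 arrays) or Sto medium (1 array), and Sto organoids in SI medium (2 arrays) or Sto medium (1 array). SI medium contains Egf, Noggin and R-spondin, and Sto medium adds Wnt3a, Fgf10 and gastrin. The labels do not say that arrays of a group came from separate mice, so the tests measure the spread between these arrays. The mice were of either sex and 3 to 10 months old.

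Levels are log2 signals as normalised by the authors. A gene was called where the limma fit gave an adjusted p under 0.05 and a difference of at least 2-fold, a log2 difference of 1. Values on the log2 scale of silent genes lie near a background that differs between probe sets, so differences were taken within a gene across arrays.

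Several arrays stood apart before any integrin or laminin was considered. The library labelled SI organoids in SI medium 1 carried a mean of 11.59 over 4 stomach markers and 4.50 over 4 small intestinal markers, where the other arrays of its group had 4.43 to 5.81 and 10.61 to 10.82. Its Cdx2 signal was 5.52 against 9.92 and 9.67 on its partners, so most results that use it are given with and without it. Sorted SCs against organoids in Sto medium are given with it only, where it enters through the estimate of spread. The library labelled Cdx2null SI SCs 1 had a Cdx2 signal of 8.41 and Cdx2null SI SCs 2 one of 4.88, and control SI SCs lay between 8.94 and 10.05. The paper states that the array's Cdx2 probes include exons that deletion leaves in place. Its genotyping of samples from the clonal cultures found the floxed allele only without 4-hydroxytamoxifen. The cause of the Cdx2 difference between them, such as incomplete deletion on Cdx2null SI SCs 1, was not tested. Both Cdx2null libraries had stomach marker means (11.14 and 11.87) beside those of control Sto SCs (12.17 and 11.95). Their small intestinal marker means were 5.16 and 4.39, where control Sto SCs had 3.99 and 4.55 and control SI SCs 8.87 to 9.56. The libraries numbered 3, control SI SCs 3 and the third of the SI organoids in SI medium, had been exported differently, with upper quartiles of 7.50 and 7.57 against 7.79 to 7.90 on the others. On the latter array 14 of the 36 members had their lowest value. Epithelial markers averaged 11.79 to 12.25 on every array, while leukocyte markers averaged 3.83 to 4.30, endothelial markers 3.45 to 3.74, mesenchymal markers 4.02 to 4.38 and squamous markers 3.86 to 4.30, below the array medians of 4.72 to 5.05. Platelet markers averaged 3.68 to 4.99, and exceeded the array median on Sto organoids in Sto medium 1 alone.

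The array median served as a rough common cut. Since it takes no account of each probe set's background, it is a guide only, and the mesenchymal gene Col1a1 (4.70 to 5.47) passed it on 13 arrays. Signals of 14 members exceeded the array median on all 14 arrays: the laminin receptor chains Itga3, Itga6, Itgb1 and Itgb4, the collagen receptor chains Itga1 and Itga2, the RGD-binding chains Itga5, Itgav, Itgb5 and Itgb6, and the laminin chains Lama5, Lamb2, Lamb3 and Lamc1. Another 14 exceeded it on 0 arrays, among them 6 of the 7 leukocyte integrins (Itgad, Itgal, Itgam, Itgax, Itgb2 and Itgb7), the collagen receptor chains Itga10 and Itga11 of mesenchyme and cartilage, Itga4, Itga8, and the laminin chains Lama1, Lama2, Lama4 and Lamc3 of embryonic, muscle, vessel and nerve basement membranes. Those 14 varied by 0.21 to 0.80 on the log2 scale across all arrays.

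The receptor chains Itga2, Itga6, Itgb4 and Itgb1 had the narrowest ranges among the 14 members above the median on every array. Itga6 and Itgb4, which together form the hemidesmosome receptor for laminin, lay at 9.54 to 10.84 and 9.22 to 10.73, and Itga2, a collagen receptor chain, reached 11.27 with a range of 1.27. Itgb1, the common partner of most alpha chains here, lay at 8.93 to 10.48, Lamb3 at 8.41 to 10.12, and Itgb5, a vitronectin-binding partner of Itgav, at 7.69 to 9.62. The lowest value of each was on control SI SCs 3 or SI organoids in SI medium 3, the differently exported arrays, and none of these 6 was called in any comparison.

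The remaining 8 members, Itga2b, Itga7, Itga9, Itgae, Itgb3, Itgb8, Lama3 and Lamb1, crossed the array median on some arrays. Itgae, the chain that retains lymphocytes in epithelium by binding E-cadherin, was above it on 3 arrays and reached 5.40 on Sto organoids in SI medium 2. The leukocyte marker Ptprc lay at 3.75 to 4.33 on all arrays and 6 of the 8 leukocyte markers were above the median on no array, although Laptm5, also a leukocyte gene, reached 8.04 on the array where Itgae was highest; the part of leukocytes in the Itgae value was not tested. Itgb3, the beta chain of the platelet fibrinogen receptor and of a vitronectin receptor, exceeded the median on 1 array, Sto organoids in Sto medium 1, with 5.63 against 3.87 to 4.75 elsewhere. On that array the platelet chemokine gene Ppbp was at 6.87 and smooth muscle actin Acta2 at 6.14, while Pf4 stayed at or below 4.18 on all arrays; the part of other cells in the Itgb3 value was not tested. Itga2b, the platelet partner of Itgb3, did not go above 5.07. Itgb8, which pairs with Itgav to free TGF-beta, peaked at 5.62 on SI organoids in SI medium 1 and was between 4.07 and 4.88 on the others.

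**Figure D1:**
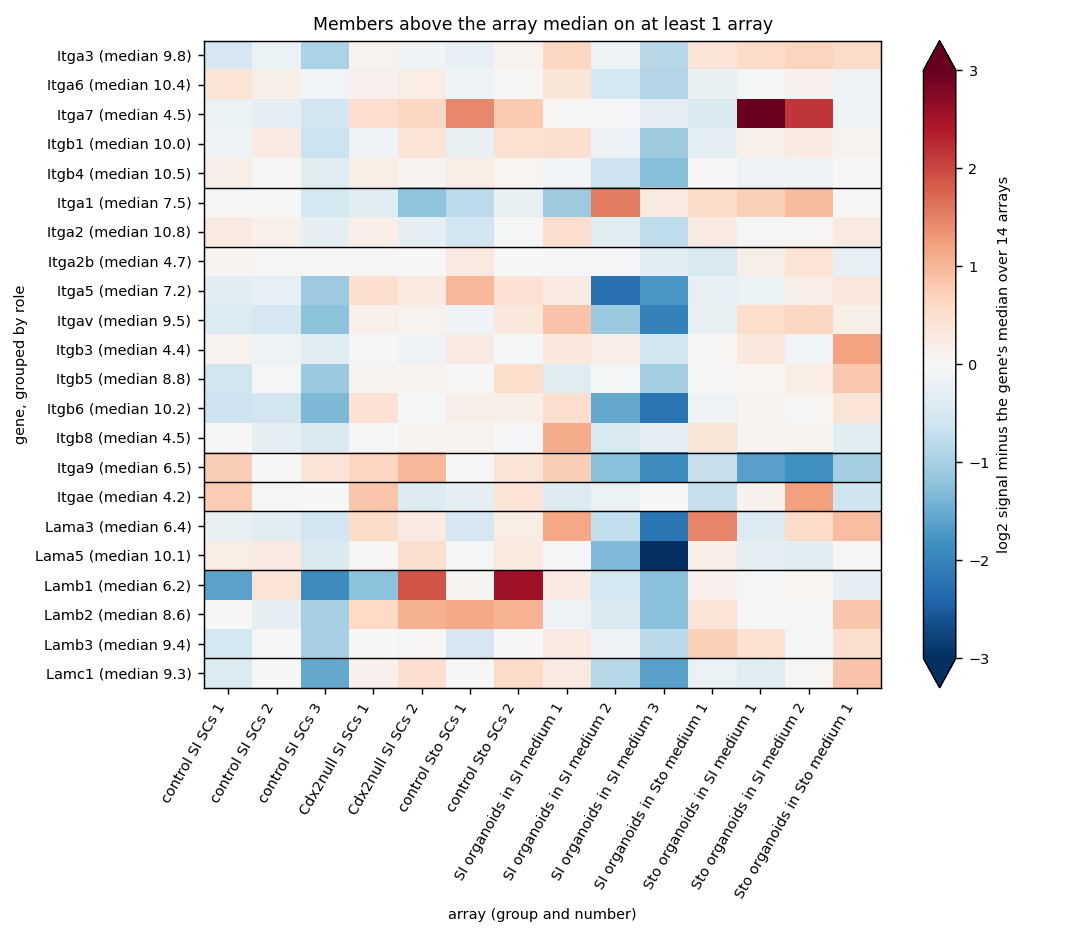
Log2 signal of the 22 members above the array median on at least 1 array, shown as the difference from each gene's median over 14 arrays (colour bar; row labels give that median), with arrays in columns and genes in rows grouped by role. SI organoids in SI medium 2 and 3 are low for Itga5, Itgav and Itgb6, Itga7 is highest on the 2 arrays of Sto organoids in SI medium, and Itga9 is higher on all 7 sorted arrays than on any organoid array but SI organoids in SI medium 1.

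Control Sto SCs and control SI SCs, sorted from organoids in the same medium, were compared to ask how the subunits differ with organ of origin. Itga7 and Lamb2 were called higher in control Sto SCs. They are 2 of 36 members (5.56%), against 2.86% of all genes called in this comparison and 1.94% called higher, and 0 members were called lower. Over the members the median log2 difference was 0.10, and over all genes 0.03. In bulk RNA, here and below, fewer cells of a type and less RNA per cell cannot be told apart.

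Itga7, an alpha chain that pairs with Itgb1 to bind laminin and is best known from muscle, read 5.93 and 5.28 on the control Sto SC arrays and 4.30, 4.21 and 3.92 on the control SI SC arrays. Both stomach arrays were above all 3 intestinal arrays, and the difference was 1.47 ± 0.23 (SE) on the log2 scale, 2.77-fold, with an adjusted p of 0.0204. Lamb2, the beta chain of mature basement membranes, read 9.69 and 9.59 against 8.55, 8.25 and 7.56. Again the groups did not overlap, with a difference of 1.52 ± 0.30, 2.87-fold, and an adjusted p of 0.0467. Neither call remained without control SI SCs 3, where the differences were 1.36 and 1.24 with adjusted p of 0.0652 and 0.0575, and the Itga7 call was also lost without control SI SCs 1 (adjusted p = 0.0593) or control Sto SCs 1 (adjusted p = 0.110) and the Lamb2 call without any single one of the 7 sorted arrays (adjusted p from 0.0546 to 0.229). By Xist and Kdm5d, control SI SCs 1 and 3 were male and the other sorted arrays female. A sex term therefore sets the control Sto SC arrays against control SI SCs 2 alone. With it the differences were 1.40 and 1.39, and neither was called.

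Among the RGD-binding chains, Itga5, the alpha chain of the main fibronectin receptor, read 8.16 and 7.60 in control Sto SCs and 6.84, 6.92 and 6.07 in control SI SCs. The stomach values were all above the intestinal ones, but the difference of 1.27 ± 0.30 missed the threshold (adjusted p = 0.0796). It passed after quantile normalisation, at 1.13 with an adjusted p of 0.0474. Itgb6, the epithelial partner of Itgav in a receptor that activates TGF-beta, was 10.40 and 10.39 against 9.60, 9.66 and 8.87, a difference of 1.02 ± 0.27 with an adjusted p of 0.114. Itgav itself was 9.39 and 9.81 against 9.10, 9.00 and 8.28, a difference of 0.81 ± 0.27 with an adjusted p of 0.190. For both genes the groups did not overlap and the test was not passed. Over the 36 members, the control Sto SC arrays were above every control SI SC array for 9 and below for 0. Together that is 25.0% of members without overlap, against 30.6% of all genes.

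Upstream sequence is shown for Itga5, Itgb6 and Lamb2, 3 of the members whose values in control Sto SCs and Cdx2null SI SCs lay above all control SI SC values, so that it can be read beside the loss of Cdx2. The RefSeq promoter table (GRCm38.p6) held 23 of the 36 members with 26 start sites, and the 250 bases before each start were searched on both strands for TTTATG (bound by CDX factors), TGANTCA (AP-1) and CAAAG (a core within HNF4 and TCF/LEF sites). Capitals mark these matches. The stretches lie at chr15:103366792-103367041 (minus strand, before Itga5), chr2:60722604-60722853 (minus strand, before Itgb6) and chr9:108479612-108479846 (plus strand, before Lamb2), each being the part of its 250-base window outside the annotated gene.
Itga5: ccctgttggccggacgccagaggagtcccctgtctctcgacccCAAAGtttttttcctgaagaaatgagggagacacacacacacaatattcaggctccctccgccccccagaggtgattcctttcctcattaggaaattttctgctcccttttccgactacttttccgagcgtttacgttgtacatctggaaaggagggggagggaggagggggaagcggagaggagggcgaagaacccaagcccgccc
Itgb6: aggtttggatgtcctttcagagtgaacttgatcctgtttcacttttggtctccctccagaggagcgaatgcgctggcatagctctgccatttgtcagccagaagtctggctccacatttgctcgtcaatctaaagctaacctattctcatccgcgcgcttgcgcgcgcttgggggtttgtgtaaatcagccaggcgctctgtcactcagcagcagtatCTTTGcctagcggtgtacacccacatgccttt
Lamb2: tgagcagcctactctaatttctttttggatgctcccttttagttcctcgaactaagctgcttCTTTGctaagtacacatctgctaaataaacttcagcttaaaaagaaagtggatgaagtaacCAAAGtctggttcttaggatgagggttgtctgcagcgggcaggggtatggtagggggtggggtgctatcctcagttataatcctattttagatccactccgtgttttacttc
The only matches in these stretches were to CAAAG or its reverse complement CTTTG, 1 in Itga5, 1 in Itgb6 and 2 in Lamb2. CAAAG occurred in 48.6% of the 32851 promoters in the table and in 13 of the 26 member promoters. TTTATG occurred in 10.8% of all promoters and in 3 of the members' 26, those of Itga1, Itga8 and Itga10, and TGANTCA in 6.75% of all promoters and in 1, that of Itgax. These counts describe the letters in the window only.

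Cdx2null SI SCs were compared with control SI SCs to ask what loss of Cdx2 does in intestinal stem cells. 0 of 36 members were called, against 1.52% of all genes, and 6 members (16.7%) had an unadjusted p under 0.05, against 11.6% of all genes. All 6 (Itga5, Itga7, Itgav, Itgb6, Lama3 and Lamb2) had the higher mean in Cdx2null SI SCs. By Xist and Kdm5d, both Cdx2null and both control Sto SC arrays were female, while control SI SCs 2 was the only female control SI SC array. Sex and loss of Cdx2 therefore overlap in part here. This comparison shares its control arrays with that of control Sto SCs, so the pair are not independent and are given side by side.

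Lamb2 read 9.16 and 9.61 in Cdx2null SI SCs, where the control arrays had 8.55 or less. The groups did not overlap, and the difference was 1.26 ± 0.30 with an adjusted p of 0.123, beside 1.52 in control Sto SCs. Itgb6 read 10.65 and 10.18, above all 3 control arrays, with a difference of 1.04 ± 0.27 and an adjusted p of 0.164, beside 1.02. Itga5 read 7.67 and 7.48, also above all control arrays, with a difference of 0.96 ± 0.30 and an adjusted p of 0.238, beside 1.27.

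Itga7 read 4.99 and 5.12, above the controls and below both control Sto SC arrays. Its difference from control SI SCs was 0.92 ± 0.23, with an adjusted p of 0.137, beside 1.47 in control Sto SCs. Itgav read 9.65 and 9.61, a difference of 0.84 ± 0.27 (adjusted p = 0.259) beside 0.81. Lama3, the alpha chain of the laminin under stratified and simple epithelia, read 6.92 and 6.61 against 6.15, 6.05 and 5.79, a difference of 0.77 ± 0.24 (adjusted p = 0.252) beside 0.23. Both Cdx2null arrays were above every control SI SC array for 10 of the 36 members, these 6 among them, and below for 0. Together that is 27.8% of members without overlap, against 24.9% of all genes, and none of these differences passed the test.

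Lamb1, the beta chain of embryonic and many adult laminins, varied widely between arrays within the sorted groups. It read 4.92 and 8.04 in Cdx2null SI SCs, 4.54, 6.55 and 4.26 in control SI SCs, and 6.23 and 8.71 in control Sto SCs. In each sorted group array 2 exceeded array 1, by 3.13, 2.01 and 2.47, and at most 53 of 18820 genes differed by as much in that direction within these pairs. The Cdx2null difference was 1.36 ± 1.15 (adjusted p = 0.764), and it changed sign to -0.20 without Cdx2null SI SCs 2 and to -0.069 with sex as a term. With the sex term the difference is that from control SI SCs 2 alone, the control array with the highest value (6.55). The stomach difference was 2.35 ± 1.15 (adjusted p = 0.412), and with the replicate number as a block 1.93 with an adjusted p of 0.0455.

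Between Cdx2null SI SCs and control Sto SCs, 0 of 36 members were called, where 0% of all genes were called by limma. At an unadjusted p under 0.05 there were 0 members, against 1.52% of all genes. The farthest apart were Lamb1, at -0.99 ± 1.26, and Itga9, at 0.64 ± 0.27. With 2 arrays against 2, a missed threshold does not show that the levels were equal.

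**Figure D2:**
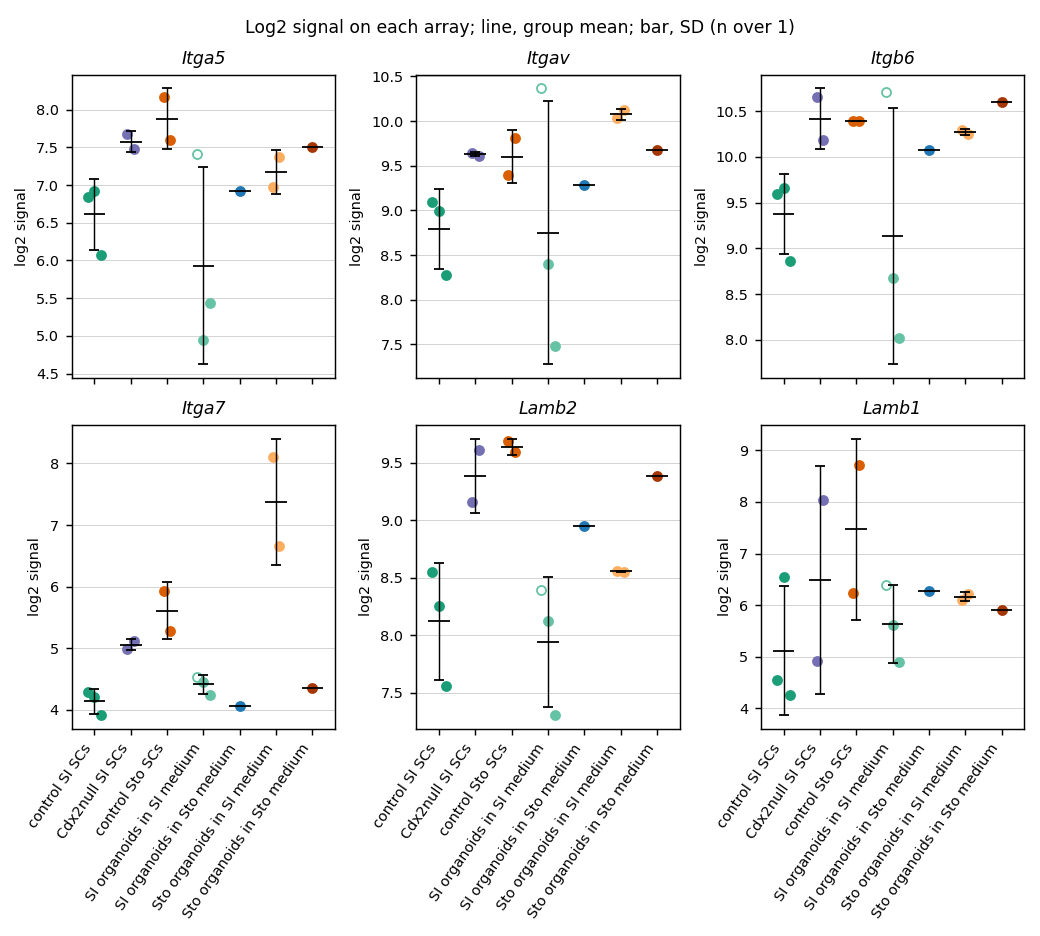
Log2 signal of Itga5, Itgav, Itgb6, Itga7, Lamb2 and Lamb1 on each array (points) in the 7 groups, with the group mean (line) and SD (bar, groups of over 1 array). The open circle is SI organoids in SI medium 1, which lies with the stomach arrays for Itga5, Itgav and Itgb6, and Lamb1 spreads from 4.92 to 8.04 within Cdx2null SI SCs.

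The binding partners outside the 2 families gave some calls in the sorted cells. Of 18 other integrin ligands, fibronectin (Fn1), bound by Itga5 with Itgb1, and Icam1, bound by leukocyte integrins, were called higher in both comparisons with control SI SCs. Fn1 read 9.04, 9.29 and 8.16 in control SI SCs, 11.22 and 11.39 in Cdx2null SI SCs, and 10.47 and 11.40 in control Sto SCs. All 4 latter arrays were above the controls, with differences of 2.47 ± 0.39 (adjusted p = 0.0318) and 2.11 ± 0.39 (adjusted p = 0.0384). Icam1 differed by 1.74 ± 0.23 and 2.76 ± 0.23, with adjusted p of 0.0168 and 0.00264.

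Of 19 other basement membrane genes, the type IV collagen chain Col4a5 and netrin 4 (Ntn4), which binds laminin gamma chains and opens laminin networks, were called higher in both. Ntn4 read 4.40, 4.28 and 4.64 in control SI SCs, 6.22 and 5.96 in Cdx2null SI SCs and 6.02 and 5.96 in control Sto SCs. The 4 arrays were again above the 3 controls, with differences of 1.65 ± 0.16 and 1.55 ± 0.16 and adjusted p of 0.00601 and 0.00597. Col4a5 differed by 1.20 ± 0.19 and 1.31 ± 0.19, with adjusted p of 0.0353 and 0.0180. Of 10 other laminin receptors and hemidesmosome partners and of 32 integrin adaptors and activators, such as talins and kindlins, 0 were called in either comparison, and between Cdx2null SI SCs and control Sto SCs 0 genes of these 4 lists were called.

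Sto and SI organoids, both in SI medium, extend the question of origin to whole cultures that hold differentiated cells. The paper describes SI medium as the medium that lets Sto organoids differentiate. Origin and stem cell state therefore cannot be told apart between these organoids, here and below. With all 5 arrays 0 of 36 members were called, against 1.41% of all genes. At an unadjusted p under 0.05 there was 1 member (2.78%), against 16.5% of all genes. That member was Itga7, at 8.10 and 6.66 in Sto organoids and 4.54, 4.46 and 4.24 in SI organoids. The Sto arrays were far above all SI arrays, with the largest difference among the members of this comparison, 2.96 ± 0.45 (7.79-fold), and an adjusted p of 0.0610. After quantile normalisation the adjusted p was 0.0464 and Itga7 was called. The stem cell gene Lgr5 read 4.20 and 4.32 on the same Sto organoid arrays, 9.49 to 10.28 in SI organoids in SI medium and 9.29 in Sto organoids in Sto medium. The part of stem cell state in the differences of Itga7 and the other members was not tested. Itgav (1.33), Itga5 (1.24), Lama5 (1.19) and Itgb6 (1.13) were also over 2-fold apart, with adjusted p from 0.512 to 0.611.

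Without SI organoids in SI medium 1, the array that carried stomach markers, 5 of 36 members were called and all were higher in Sto organoids. That is 13.9% of members against 13.9% of all genes called in either direction and 7.57% called higher. The median log2 difference over all 36 was 0.48. It was 0.41 after quantile normalisation and 0.33 with SI organoids in SI medium 3, the array exported differently, left out too. With all 5 arrays it was 0.40, against 0.04 over all genes. These values rest on 2 arrays against 2.

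Itga5 read 6.97 and 7.38 in Sto organoids and 4.95 and 5.43 on SI organoids in SI medium 2 and 3. The groups did not overlap, with a difference of 1.98 ± 0.26 (3.96-fold) and an adjusted p of 0.00533. Itgav read 10.04 and 10.12 against 8.40 and 7.49, a difference of 2.14 ± 0.32 (4.40-fold) with an adjusted p of 0.00873. Itgb6 read 10.29 and 10.25 against 8.67 and 8.02, a difference of 1.92 ± 0.26 (3.79-fold) with an adjusted p of 0.00622. On SI organoids in SI medium 1 the 3 genes read 7.42, 10.37 and 10.71, above both Sto organoid arrays.

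For Itga7 the difference became 3.03 ± 0.46 with an adjusted p of 0.00899. Itga3, the alpha chain of the main epithelial laminin receptor, read 10.34 and 10.44 against 9.63 and 8.95, a difference of 1.10 ± 0.27 with an adjusted p of 0.0436. SI organoids in SI medium 3, the lower of each pair except for Itga5, was also the array exported differently. After quantile normalisation Itga5 (1.96), Itga7 (3.02), Itgav (1.89) and Itgb6 (1.64) were called, against 13.6% of all genes, and Itga3 (0.78) was below 2-fold. With that array left out too, 1 SI organoid array remained, whose spread was taken from the Sto organoids in SI medium alone, and Itga5 (2.23, adjusted p = 0.0459), Itgav (1.68, adjusted p = 0.0341) and Itgb6 (1.60, adjusted p = 0.0343) passed the threshold, against 6.31% of all genes, while Itga7 did not (2.92, adjusted p = 0.132).

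The laminin chains in the same comparison had differences that were not called. Lama5, the main alpha chain of adult epithelial basement membranes, read 9.76 and 9.69 in Sto organoids and 8.73 and 6.85 on SI organoids 2 and 3, a difference of 1.93 ± 0.57 (adjusted p = 0.0743). Lama3 read 5.95 and 6.95 against 5.64 and 4.19, 1.53 ± 0.54 (adjusted p = 0.117), and Lamc1, the gamma chain shared by most laminins, 8.96 and 9.32 against 8.44 and 7.66, 1.09 ± 0.31 (adjusted p = 0.0654). In all 3 genes the Sto arrays were the higher, and in Lama5 and Lama3 the 2 SI organoid arrays lay farther from each other than array 2 lay from the nearer Sto array.

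**Figure D3:**
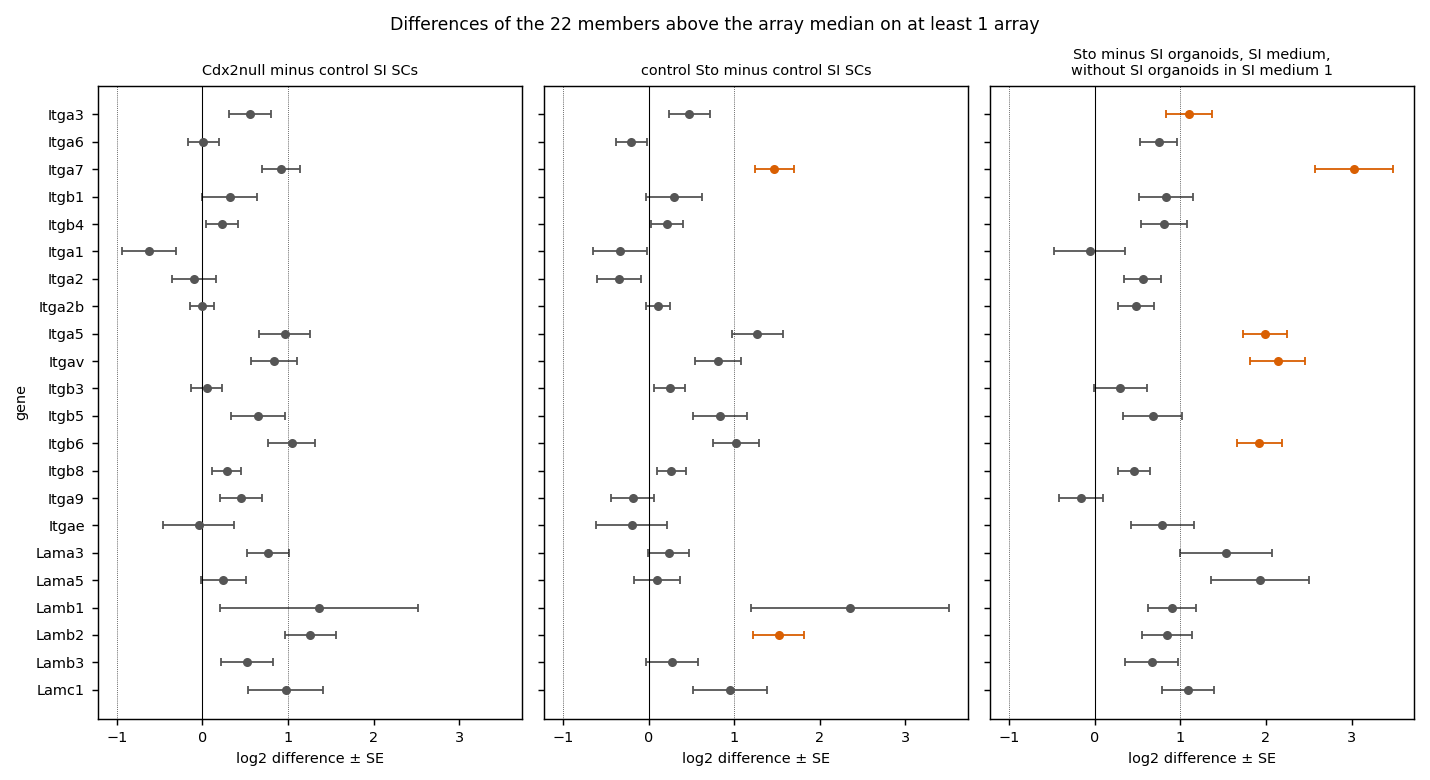
Log2 difference with SE of the 22 members above the array median on at least 1 array, for Cdx2null against control SI SCs, control Sto against control SI SCs, and Sto against SI organoids in SI medium without SI organoids in SI medium 1; dotted lines mark 2-fold and orange marks called genes. 0, 2 and 5 members are orange, and Itga5, Itgav, Itgb6 and Itga7 lie right of 0 in all 3 panels.

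Some genes of the pathway lists were called between Sto and SI organoids without that array, where 13.9% of all genes were called. Fn1 read 10.14 and 10.43 in Sto organoids and 5.83 and 3.96 in SI organoids, a difference of 5.39 ± 0.58 with an adjusted p of 0.00272. Icam1 (2.81) and Ccn2 (2.80), a matricellular ligand, were called higher as well, making 3 of 18 ligands. The basement membrane genes Egfl6 (4.23), Tinagl1 (3.42) and Col18a1 (1.75) were called higher, 3 of 19. Of 32 adaptors, Parva (1.07) and Sharpin (1.18) were higher and Kank1 (-2.86) was lower, and of 10 other laminin receptors Rpsa (-1.11), better known as a ribosomal protein, was lower.

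Whether origin acted differently in sorted cells and in organoids was tested as the difference of the differences. 0 of 36 members were called, against 0.845% of all genes, and 2 had an unadjusted p under 0.05. For Itga7 the stomach excess was 1.49 ± 0.52 smaller in SCs than in organoids in SI medium (log2 difference of -1.49, adjusted p = 0.317). Without Sto organoids in SI medium 2 it was -2.21 with an adjusted p of 0.0393 and was called. Lamb1 (1.83 ± 1.48), Lama5 (-1.10 ± 1.00) and Itgae (-1.08) were the other members past 2-fold. Without SI organoids in SI medium 1 also 0 members were called, against 4.54% of all genes, while Fn1 was, at -3.28 ± 0.78 with an adjusted p of 0.0473.

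Medium was compared across the organoids, with origin as a term. In this fit 0 of 36 members were called, where 0% of all genes were called, and 3 (8.33%) had an unadjusted p under 0.05, against 9.65%. Itga7 (-1.60 ± 0.66), Lama3 (1.48 ± 0.89) and Lama5 (1.09 ± 0.83) were past 2-fold in Sto over SI medium. Without SI organoids in SI medium 1, 8 members (22.2%) had an unadjusted p under 0.05, against 15.4% of all genes. In that fit 7 members (19.4%) differed by at least 2-fold, against 7.46% of all genes. Sto medium had 1 array for each origin, so within an origin 1 array stood against 2 or 3.

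In SI organoids without SI organoids in SI medium 1, 0 of 36 members were called, against 2.04% of all genes. Of the 36, 9 (25.0%) differed by at least 2-fold and 14 (38.9%) had an unadjusted p under 0.05, where 9.73% and 16.0% of all genes did, with 1 array in Sto medium whose own spread is unknown. The SI medium arrays here include SI organoids in SI medium 3, the array exported differently, which held the lowest value of 14 of the 36 members. Lama3 read 7.83 in Sto medium and 5.64 and 4.19 in SI medium, and Lama5 10.25 against 8.73 and 6.85. The single Sto medium array was the higher by 2.91 ± 0.66 (adjusted p = 0.109) and 2.46 ± 0.70 (adjusted p = 0.171). Itga5 read 6.92 in Sto medium and Itgb6 10.07, with differences of 1.73 ± 0.32 for each and adjusted p of 0.0629 and 0.0661, and Itgav read 9.29, a difference of 1.35 ± 0.39 (adjusted p = 0.178). Every one of these SI organoid values in Sto medium lay above both SI medium arrays, and for Itga5, Itgav and Itgb6 it lay below the Sto organoid array in the same medium, at 7.50, 9.68 and 10.60. The other members past 2-fold were the laminin chains Lamb2 (1.23), Lamb3 (1.16), Lamc1 (1.05) and Lamb1 (1.02), all higher in Sto medium. For each of these chains the differently exported array was the lower of the SI medium arrays in this fit. Fn1 read 11.80 in Sto medium, and its difference of 6.91 ± 0.70 was called (adjusted p = 0.00940), as were those of Vcam1 (2.20), Thbs1 (2.81) and the adaptor Flna (2.33).

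In Sto organoids Itga7 was the member farthest apart between media. It read 4.35 in Sto medium against 8.10 and 6.66 in SI medium, so the single Sto medium array was below both, and without SI organoids in SI medium 1, which enters only through the estimate of spread, the difference of -3.02 ± 0.56 was called (adjusted p = 0.0432), 1 of 36 members against 4.33% of all genes. With that array in the fit the adjusted p was 0.177. The spread of the single array in Sto medium is unknown and was taken from the other groups. By Xist and Kdm5d that array was male and both Sto organoid arrays in SI medium were female, so sex and medium cannot be told apart in Sto organoids. SI organoids had 4.07 in Sto medium and 4.24 to 4.54 in SI medium. Itgb6, Itga5 and Itgav differed by 0.33 ± 0.32, 0.33 ± 0.32 and -0.40 ± 0.39 between media in Sto organoids, with adjusted p from 0.740 to 0.753. Vcam1 (1.51), Thbs1 (1.87) and Rpsa (1.30) were called higher in Sto medium.

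Sorted SCs were compared with whole organoids of the same 2 origins to ask which subunits go with the stem cell state. Against organoids in SI medium, sorting and medium cannot be told apart, since the growth protocol names Sto medium for the organoids that gave the sorted cells. Itga7 was called lower in sorted SCs, 1 of 36 members (2.78%) against 3.99% of all genes, at -1.02 ± 0.26 with an adjusted p of 0.0417. Control SI SCs (3.92 to 4.30) and SI organoids in SI medium (4.24 to 4.54) lay close together, and the Sto arrays were far apart, at 5.28 and 5.93 in sorted cells and 6.66 and 8.10 in organoids. The call was lost without any single array other than Sto organoids in SI medium 2, with the difference ranging from -0.66 to -1.38 over all left-out arrays. It was also lost with sex as a term (-0.99), where control SI SCs 2 alone stands for control SI SCs.

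Without SI organoids in SI medium 1, 4 of 36 members were called, 11.1% against 7.22% of all genes, with Itga9, Itga5 and Lama5 higher and Itga1 lower in sorted SCs. Itga9, a chain that pairs with Itgb1 to bind tenascin, osteopontin and Vcam1, read 7.21, 6.49 and 6.87 in control SI SCs, 6.48 and 6.86 in control Sto SCs and 7.14 and 7.48 in Cdx2null SI SCs. Organoids read 5.22 and 4.63 (SI organoids 2 and 3 in SI medium), 4.86 and 4.67 (Sto, SI medium), 5.79 (SI, Sto medium) and 5.47 (Sto, Sto medium), all below every sorted array, while SI organoids in SI medium 1 read 7.23. The difference was 1.92 ± 0.19 (3.78-fold) with an adjusted p of 0.000195, and it was called within SI (1.93 ± 0.26, adjusted p = 0.00182) and within Sto (1.91 ± 0.28, adjusted p = 0.00237). With all arrays it was 1.53 ± 0.43 with an adjusted p of 0.0625.

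Matched for Sto medium, the Itga9 difference between sorted SCs and organoids was 1.13 ± 0.57 with an adjusted p of 0.642, from 1 organoid array for each origin. In that matched comparison 0 of 36 members were called, against 0.0425% of all genes, and Lama3 was the other member past 2-fold, at -1.45 ± 0.71 (adjusted p = 0.628). Lama3 read 7.83 and 7.30 in the organoids and 5.79 to 6.92 on the 7 sorted arrays, without overlap.

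Lama5 read 10.27, 10.32 and 9.61 in control SI SCs and 9.99 and 10.34 in control Sto SCs, and Itga5 and Lama5 differed from organoids in SI medium by 1.06 ± 0.22 (adjusted p = 0.00941) and 1.36 ± 0.34 (adjusted p = 0.0252) without SI organoids in SI medium 1. Against organoids in Sto medium, the matched medium, the differences were 0.034 ± 0.57 for Itga5 and -0.058 ± 0.65 for Lama5. SI organoids in SI medium 1 was part of the spread in that matched fit. Only 1 of these sorted Lama5 values, that of control SI SCs 3, lay below the highest organoid value left in SI medium (9.76). Within SI, without the array that carried stomach markers, 3 of 36 members were called (5.11% of all genes), Itga9 among them, and Lama5 differed by 2.28 ± 0.46 (adjusted p = 0.0180) and Itga5 by 1.42 ± 0.29 (adjusted p = 0.0196). Within Sto, where 2 of 36 members were called (9.23% of all genes), Itga9 higher and Itga7 lower, those differences were 0.44 ± 0.51 and 0.71 ± 0.32 and neither was called. Itga1, an alpha chain that binds collagen with Itgb1, read 6.32 to 7.56 on the sorted arrays and 7.53 to 9.07 on the organoid arrays other than SI organoids in SI medium 1, which read 6.47. Its difference was -1.20 ± 0.29 with an adjusted p of 0.0202, and the sets overlapped only at the Sto organoid array in Sto medium (7.53), which the fit compares with no sorted array here.

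**Figure D4:**
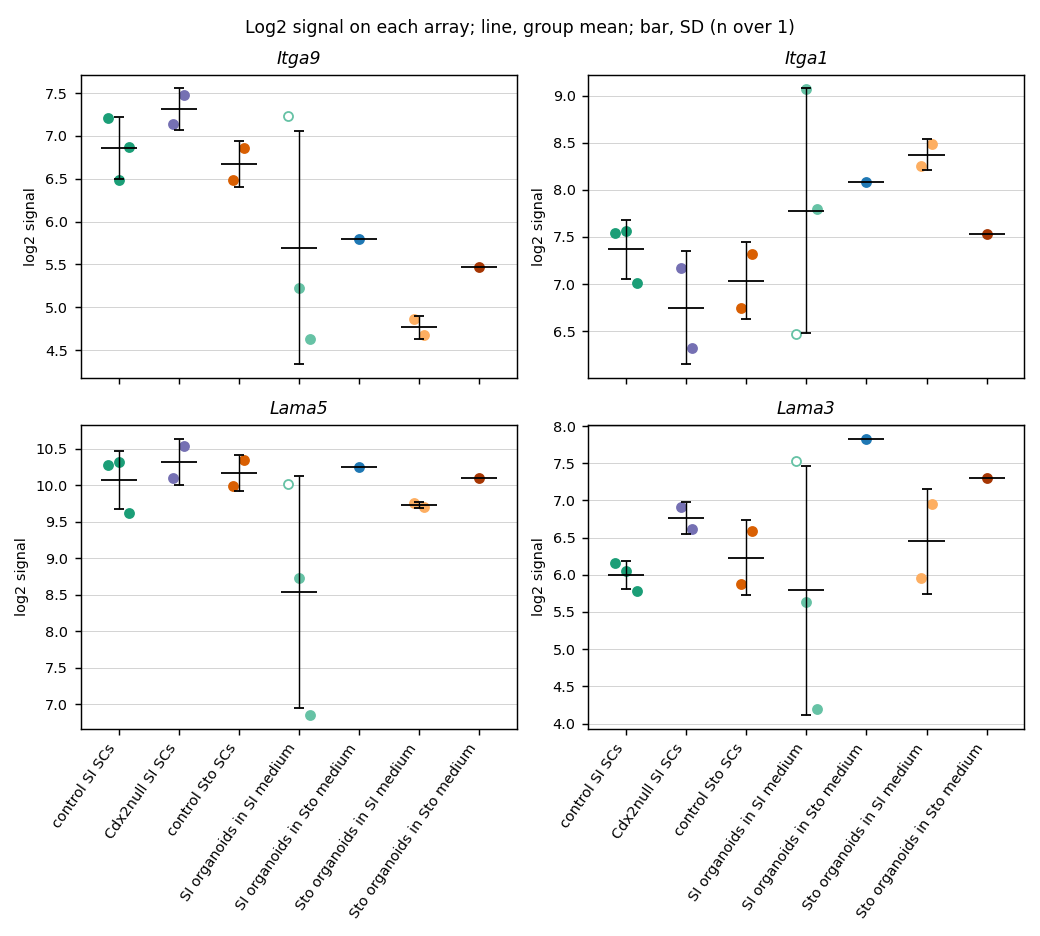
Log2 signal of Itga9, Itga1, Lama5 and Lama3 on each array (points) in the 7 groups, with the group mean (line) and SD (bar, groups of over 1 array); the open circle is SI organoids in SI medium 1. Itga9 lies at 6.48 to 7.48 on the sorted arrays and at 4.63 to 5.79 on the organoid arrays with filled circles, and the 2 filled circles of SI organoids in SI medium lie lowest for Lama5.

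Among the ligands and basement membrane genes, the matricellular integrin ligand Ccn1 was called higher in sorted SCs with all arrays (2.95 ± 0.47, adjusted p = 0.00566), as was perlecan, Hspg2 (1.13 ± 0.16), and Ntn4 was called lower (-1.12 ± 0.22). Without SI organoids in SI medium 1, 5 of 18 ligands were called, against 7.22% of all genes, and all were higher in sorted SCs: Ccn1 (3.34), Ccn2 (2.80), Thbs1 (2.37), Fn1 (2.29) and Icam1 (1.48). Of 19 basement membrane genes, Hspg2 and Col18a1 were higher and Nid1, the linker of laminin and collagen networks, and Ntn4 were lower. Of 32 adaptors, Tns4 (1.53) was higher, and of 10 other laminin receptors and hemidesmosome partners 0 were called. With all arrays 0 genes of the 4 lists were called for origin or medium in organoids, for sorted SCs against organoids in Sto medium or for the difference of origin effects.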

How the data were processed

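Log2 signals were deposited by the authors, who normalised the arrays with RMA-sketch of Affymetrix Power Tools. Every value column was matched to a sample. Of 35556 probe sets, 21218 had 1 gene symbol in the platform annotation, which gave 18820 genes. Linear models were fitted in R 4.3.3 by limma 3.58.1 with moderated variances (eBayes), using 1 mean per group over the sorted arrays, over the organoids or over all arrays, or, for medium, with origin and medium as terms. p-values were adjusted by Benjamini-Hochberg over all genes, and values after ± are standard errors unless said otherwise. Members called, or at least 2-fold apart, were described in full, and the rest by ranges and counts. The members and lists were chosen with earlier results of these data known. Alternatives were quantile normalisation, median centring, brighter genes only, all probe sets, sex or replicate number as a term, left-out arrays and the methods' t-test. The number of arrays limits the precision. The fits were tested on simulated data. Tables were handled with Python 3.11.15 and pandas 2.3.3.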

Additional observations from a re-analysis of the deposited data

How the results depend on the processing

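Of 140 recalculated counts of called members, 104 stayed within 1.5 times the main count and 36 moved. For single members, 331 of 378 recalculated values kept direction and call, 32 lost the call, 13 gained it and 2 changed sign. Lamb1 in Cdx2null against control SI SCs, 1.36 in the main fit, was -0.069 with sex as a term and ranged from -0.20 to 2.92 as arrays were left out in turn. Among the sorted groups sex varied within control SI SCs only. With sex as a term, differences from control SI SCs therefore rest on control SI SCs 2 alone. For control Sto against control SI SCs, 2 members were called in the main fit, 1 with all probe sets tested, 0 without the 2 differently exported arrays, 0 with sex as a term, 0 by the methods' t-test after Benjamini-Hochberg adjustment, and 0 to 1 as arrays were left out.

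With the replicate number as a block, 1 member was called in that comparison, Lamb1, and neither Itga7 nor Lamb2. Deviations of same-numbered arrays from their group means had correlations from 0.0716 to 0.404 in sorted cells, all positive, and of -0.0577 and -0.0565 in organoids. The main fits did not take the numbers to pair samples, and whether same-numbered sorted arrays were prepared together was not tested. The block could not be fitted for sorted SCs against organoids in Sto medium, and it moved no other count of called members.

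For Sto against SI organoids in SI medium the main count of 0 became 1 after quantile normalisation, 1 after median centring and 1 by the methods' t-test unadjusted, and it ranged from 0 to 5 as arrays were left out. Settings chosen after seeing the data gave 4 with quantile normalisation without SI organoids in SI medium 1, and 3 without SI organoids in SI medium 1 and 3. Medium within Sto organoids without SI organoids in SI medium 1, also added, gave 1 against 0. For sorted SCs against organoids in SI medium the main count of 1 became 0 without the 2 differently exported arrays and 0 with sex as a term, and ranged from 0 to 4 as arrays were left out. Added settings gave 3 within SI and 2 within Sto without SI organoids in SI medium 1, and 0 within SI with all arrays. For the difference of origin effects the count of 0 ranged from 0 to 1. Apart from the settings named as leaving out arrays, the cause of these changes was not tested.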
